A study of Mus musculus with 12 samples.

Results

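Dietary fat is taken up by intestinal epithelial cells and sent out again as lipoproteins, and the genes examined here encode 10 proteins of that route. They are Apoa1, Apoa4 and Apob, which encode apolipoproteins, Mttp, which encodes the microsomal triglyceride transfer protein, Fabp1, Fabp2 and Cd36, which encode proteins that bind or take up fatty acids, Dgat1 and Dgat2, which encode enzymes of triglyceride synthesis, and Npc1l1, which encodes a cholesterol transporter. They were chosen by gene symbol out of 54532 genes in the table, and each symbol was found. Poly-A mRNA had been sequenced from mouse colonoids, which are organoids grown from colonic epithelial stem cells, in 3 libraries of each of 4 groups. Control colonoids carried floxed Hmox1 (Hmox1 fl/fl), and colonoids labelled KO (Hmox1 ΔIEC) came from mice with floxed Hmox1 and Cre recombinase driven by the Vil1 promoter, which is active in intestinal epithelium. Colonoids of each genotype received vehicle or hemin, a chloride salt of ferric heme, at 200 µM for 24 hours. The mice were 8 to 12 weeks of age, and the colonoids were grown in L-WRN conditioned medium with a ROCK inhibitor. The label of replicate 3 labelled KO with hemin writes the genotype as Hmox1 fl/fl with Vil1-Cre, where the other KO libraries are written as Hmox1 KO with Vil1-Cre. The sources used here do not say how many animals gave the libraries, so that p-values measure only the spread between these libraries.

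In absorptive cells of the gut, fatty acids and monoacylglycerol are taken up from the lumen, bound by small cytosolic carriers and rebuilt into triglyceride in the endoplasmic reticulum. The triglyceride is loaded onto apolipoprotein B by the transfer protein, apolipoproteins A-I and A-IV join the particle, and the finished chylomicron leaves towards the lymph. The route is known chiefly from the small intestine, and colonic epithelium uses it far less. In bulk RNA, fewer cells of a type and less RNA per cell cannot be told apart.

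Hmox1, which encodes the heme-degrading enzyme heme oxygenase 1, was lower in vehicle-treated colonoids labelled KO than in vehicle-treated controls, at 2.52 ± 0.548 against 7.46 ± 0.541 FPKM (mean ± SD, n = 3), but higher with hemin, at 1314 ± 68.2 against 456.0 ± 64.6 FPKM. FPKM counts fragments per kilobase of gene, scaled to the depth of the library, and whole-gene FPKM do not show whether the floxed part is present in the mRNA. As the hemin-treated libraries go against their label in Hmox1, every genotype difference below is one between libraries labelled KO and controls. All 9 markers of epithelium were expressed in each library, as was the colonic marker Car1, whereas Hoxb13, a marker of the distal colon, had 0 fragments in each of the 6 control libraries and 104.1 to 134.3 FPKM in the 6 libraries labelled KO. Of the 6 colonic markers tested, of which Hoxb13 passed the filter only through libraries labelled KO, 4 were called higher in colonoids labelled KO under vehicle and 3 under hemin, among them Aqp8, a water channel of colonic surface cells (3.25 and 5.73 on the log2 scale), and Car4, a carbonic anhydrase of the same cells (4.36 and 1.61). Genotype and such a difference between the colonoid lines cannot be told apart with these libraries. Libraries held 11648801 to 25101868 fragments on genes.

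The 10 genes are spread over 8 chromosomes of GRCm38 (mm10), and all are protein coding. Only the apolipoprotein genes Apoa1 (chr9:46228580-46230466, plus strand, 4 exons) and Apoa4 (chr9:46240696-46243459, plus strand, 3 exons) are neighbours, 10.23 kb apart in a cluster of 43.3 kb that also holds Apoc3 and Apoa5. Fabp2 (chr3:122895072-122899506, plus strand, 4 exons) and Mttp (chr3:138089854-138144968, minus strand, 18 exons) share a chromosome but not a neighbourhood. The others are Apob (chr12:7977648-8016835, plus strand, 28 exons), Dgat1 (chr15:76502015-76511953, minus strand, 17 exons), Dgat2 (chr7:99153658-99182719, minus strand, 8 exons), Npc1l1 (chr11:6211013-6230143, minus strand, 19 exons), Fabp1 (chr6:71199827-71205023, plus strand, 4 exons) and Cd36 (chr5:17781690-17888801, minus strand, 15 exons).

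Of the 10 members, 8 had a RefSeq promoter window of 300 bases (GRCm38.p6), from 250 bases before to 50 after the RefSeq start. The parts directly upstream of the deposited gene starts are shown for Apoa1, Apoa4 and Fabp2, since Apoa1 and Fabp2 are the members that differed between the genotypes with both treatments, in opposite directions, and Apoa4 lies beside Apoa1. All are on the plus strand, at chr9:46228380-46228579 for Apoa1, chr9:46240594-46240695 for Apoa4 and chr3:122894822-122895071 for Fabp2, and capitals mark a motif match.
Apoa1: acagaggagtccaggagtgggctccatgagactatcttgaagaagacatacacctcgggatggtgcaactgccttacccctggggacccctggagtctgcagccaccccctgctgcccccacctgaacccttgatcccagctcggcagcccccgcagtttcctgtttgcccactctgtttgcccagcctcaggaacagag
Apoa4: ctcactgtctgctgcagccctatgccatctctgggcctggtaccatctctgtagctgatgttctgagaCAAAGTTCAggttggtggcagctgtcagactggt
Fabp2: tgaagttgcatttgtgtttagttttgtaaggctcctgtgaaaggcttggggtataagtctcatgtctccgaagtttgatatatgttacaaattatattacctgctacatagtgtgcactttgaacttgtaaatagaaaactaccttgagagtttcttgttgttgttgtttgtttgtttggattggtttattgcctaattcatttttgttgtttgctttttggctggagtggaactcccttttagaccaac
The motifs searched on both strands were CAAAGTCCA with its variant CAAAGTTCA, which are spellings of the site of the enterocyte and liver factor HNF4, AGGTCA, the core site of nuclear receptors, AGATAA, the site of the factors of the Gata family, and TATAAA, the TATA box, and none of these strings contains another. Apoa4 held CAAAGTTCA on the plus strand, beginning at position -34 counted from the deposited gene start. That string is in 0.39% of all 32851 RefSeq windows of the same length, and CAAAGTCCA is in 0.475%, AGGTCA in 16.3%, AGATAA in 11.2% and TATAAA in 13.6%. The windows of Apoa1 and Fabp2 held none of the 5 strings.

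To see which of these genes differed with genotype and with hemin, limma was fitted to log2(FPKM + 1) of the 12740 genes with at least 1 FPKM in at least 3 of the 12 libraries. Of the 10 members, 6 passed this filter, which were Apoa1, Apob, Mttp, Fabp2, Dgat1 and Dgat2, and Apoa1 did so only through libraries labelled KO, so that it had to differ between the genotypes to be tested and its calls between them are a description. A call needed an absolute log2 difference above 1 together with a p-value, adjusted by the method of Benjamini and Hochberg, under 0.05. Between the genotypes under vehicle, 1 member was called higher in colonoids labelled KO (Apoa1) and 2 lower (Fabp2 and Dgat2), where 3.53% of all tested genes were called higher and 3.27% lower. Under hemin, 1 was called higher (Apoa1) and 1 lower (Fabp2), against 3.1% and 2.91% of all tested genes. Hemin moved 0 members past the threshold in control colonoids, where limma called 2.17% of all tested genes higher and 5.93% lower, 2 of the 6 tested members had an unadjusted p under 0.05, limma-voom on the same genes also called 0, and limma-voom over genes with at least 10 fragments called 1 (Npc1l1, lower), where it called 1862 of 20117 genes lower. In colonoids labelled KO, hemin lowered 1 member (Fabp2), against 8.07% of all tested genes called lower and 4.87% called higher. For the interaction, the difference between the genotypes in their hemin response, 1 member was called, as higher (Dgat2), against 2.57% of all tested genes called higher and 2.56% lower. The median log2 difference of the 6 tested members was -0.03 for the genotypes under vehicle and 0.10 under hemin, beside 0.019 and 0.038 for all tested genes.

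**Figure D1:**
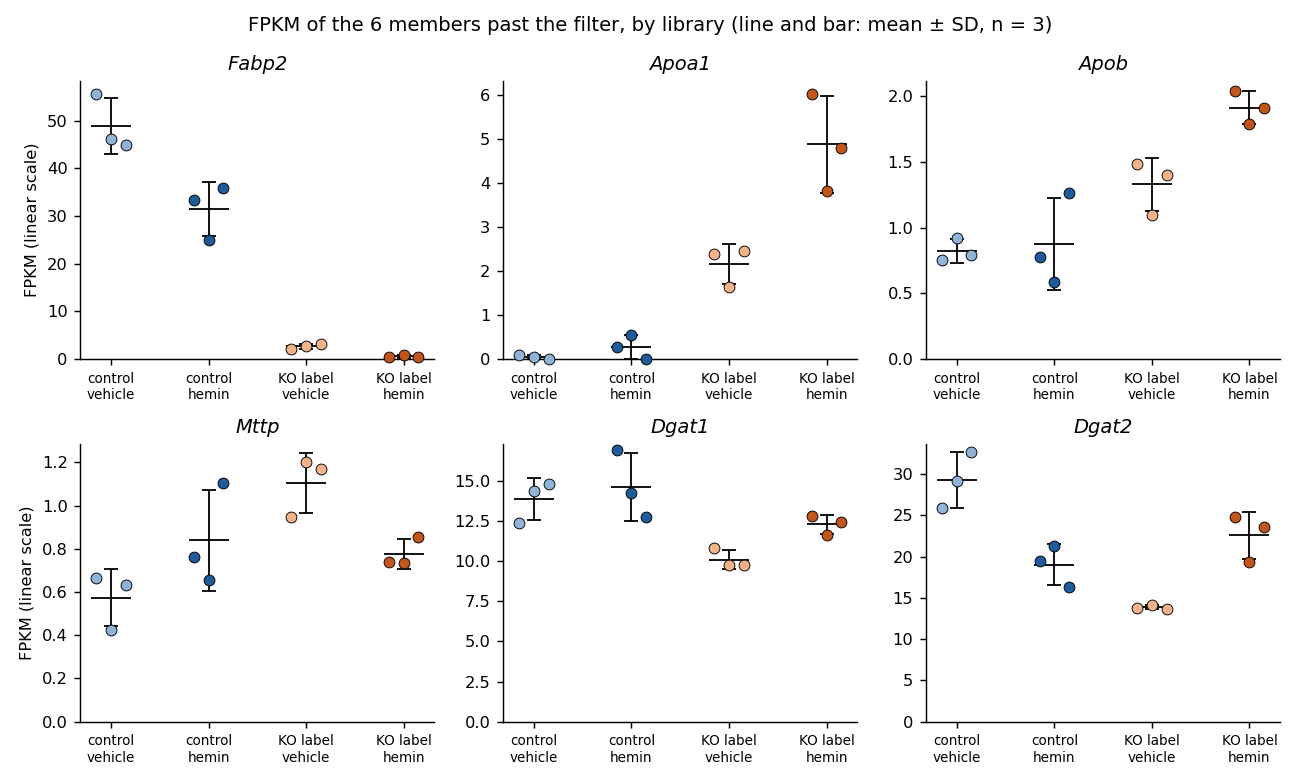
FPKM (linear axis from 0) of the 6 members past the filter in the 12 libraries, 1 panel per gene and 1 point per library. Horizontal lines are group means and bars the SD (n = 3). Fabp2 is near 0 in both groups labelled KO, Apoa1 is near 0 in both control groups, and Dgat2 is lowest in the vehicle-treated colonoids labelled KO.

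Among the apolipoproteins, Apoa1, the main protein of high-density lipoprotein and a component of nascent chylomicrons, was higher in colonoids labelled KO with either treatment. In vehicle-treated controls its FPKM were 0.0981, 0.0473 and 0 in replicates 1, 2 and 3, which rest on 2, 1 and 0 fragments. In hemin-treated controls they were 0.284, 0.547 and 0, from 4, 8 and 0 fragments. The control libraries were thus at or close to the floor, taken as 3 fragments in a library. In vehicle-treated colonoids labelled KO, Apoa1 FPKM were 2.38, 1.64 and 2.45, from 48, 35 and 51 fragments. With hemin they were 6.01, 3.82 and 4.79, from 107, 111 and 85 fragments, so that no library labelled KO overlapped a control library. The log2 difference between the genotypes was 1.58 ± 0.179 (SE) under vehicle (adjusted p = 4.51e-05) and 2.21 ± 0.179 under hemin (adjusted p = 3.56e-06). Since Apoa1 was tested only because of its level in libraries labelled KO, these p-values are no independent support. The log2 differences understate the change of so low a gene, and the ratio of pooled fragments was 41.9 under vehicle (95% counting interval 14.0 to 205.7) and 16.9 under hemin (9.51 to 33.0). Such intervals cover counting error only.

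With hemin, Apoa1 FPKM in colonoids labelled KO averaged 2.26 times that with vehicle, and the 2 groups did not overlap, but the log2 difference of 0.89 ± 0.179 stayed under the threshold on size (adjusted p = 0.00133). It passed at 1.03 without replicate 2 of the hemin-treated libraries labelled KO, and at 1.12 in limma-voom on recovered fragments. In control colonoids the hemin difference was 0.26 (adjusted p = 0.249), and the groups overlapped. The interaction was 0.63 (95% interval 0.07 to 1.19, adjusted p = 0.102) and was -0.39 in limma-voom, so its direction depended on how low values were treated.

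Apoa4, which encodes an apolipoprotein of chylomicrons, was detected in 1 group only. Vehicle-treated colonoids labelled KO had 11, 10 and 7 fragments, or 0.371, 0.319 and 0.229 FPKM, and the other 9 libraries had 0 fragments. Taking the floor of 3 fragments per library for the groups at 0, Apoa4 was at least 2.90-fold higher in vehicle-treated colonoids labelled KO than in vehicle-treated controls, and at least 3.06-fold higher than in hemin-treated colonoids labelled KO. The gene did not reach the filter. It reached 10 fragments in total, the minimum of a limma-voom fit added after seeing the data, only through the group where it was high, so that fit is no support for these differences. Apoa1 and Apoa4 thus both had more fragments in vehicle-treated colonoids labelled KO than in controls, but with hemin Apoa1 was at its highest and Apoa4 was at 0.

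Between them on the chromosome, Apoc3, which encodes an inhibitor of lipoprotein lipase, had 10, 2 and 11 fragments in vehicle-treated colonoids labelled KO and 0 to 4 in the other libraries. Apoa5, at the far end of the cluster, had 0 to 2 fragments in each library.

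**Figure D2:**
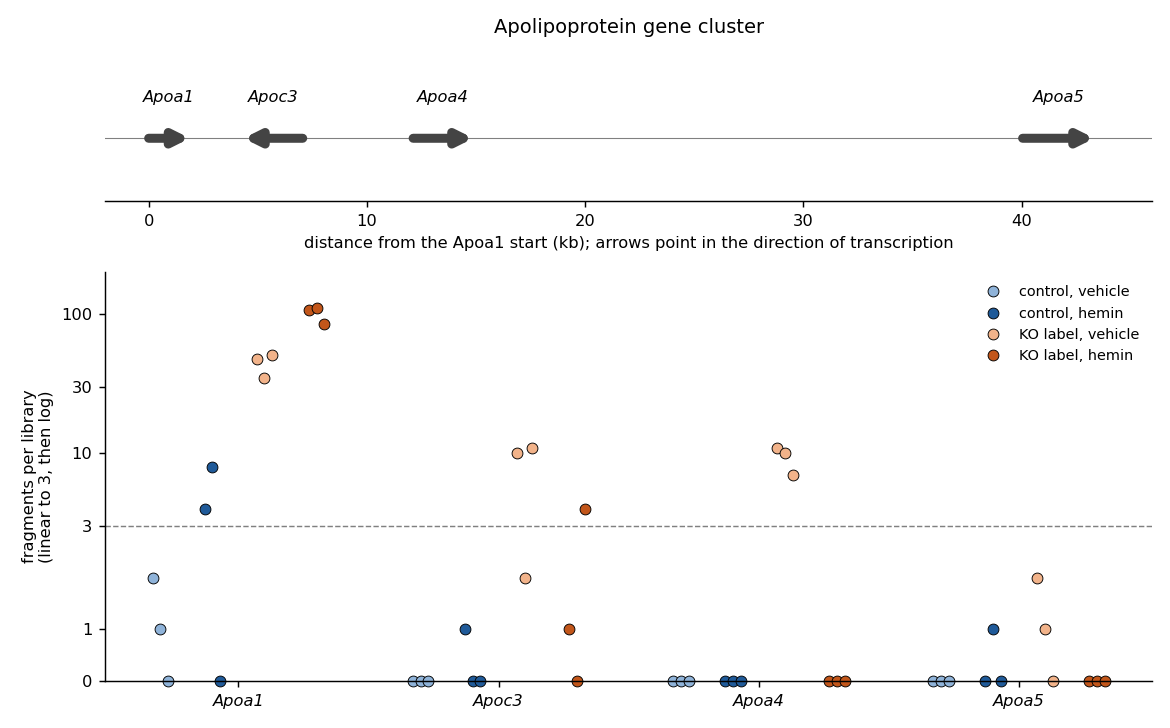
Upper panel, the 4 genes of the apolipoprotein cluster drawn to scale in kb from the start of Apoa1, with arrows in the direction of transcription. Lower panel, fragments per library for each gene (axis linear up to 3 fragments and logarithmic above, dashed line at 3), 3 points per group. Apoa1 has 35 to 111 fragments in the libraries labelled KO, and Apoa4 has fragments in vehicle-treated libraries labelled KO alone.

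Apob, the structural protein of chylomicrons and the acceptor of the lipid, was a low gene in all libraries. Its FPKM were 0.753, 0.924 and 0.789 in vehicle-treated controls and 0.774, 0.589 and 1.27 in hemin-treated controls. In colonoids labelled KO they were 1.48, 1.10 and 1.40 with vehicle and 2.04, 1.79 and 1.91 with hemin. The gene reached 1 FPKM in 1 control library and in all 6 libraries labelled KO, so that it was tested because of the latter, and its genotype differences are a description. Every library labelled KO was above the control libraries of its own treatment. Under hemin the mean was 2.18 times that of controls, with a log2 difference of 0.65 ± 0.126, which missed the threshold on size at a pseudocount of 1 and passed it at 1.10 with a pseudocount of 0.1 and at 1.19 in limma-voom. Under vehicle the log2 difference was 0.35 ± 0.126 (adjusted p = 0.0534), which missed both thresholds. In colonoids labelled KO, Apob was higher with hemin than with vehicle without overlap. That log2 difference was 0.33 ± 0.126 (adjusted p = 0.044), under the threshold on size, and in controls it was 0.03 (adjusted p = 0.878).

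Liver cells also make these apolipoproteins, so hepatocyte markers were read in the same libraries. Their summed level (Alb, Ttr, Serpina1a and Ahsg) was 0.895 to 3.28 FPKM in control libraries and 4.90 to 10.7 FPKM in libraries labelled KO. Ahsg had 0 fragments in all 12 libraries, and Serpina1a had at most 3. Alb had 43 to 69 fragments in vehicle-treated and 7 to 30 in hemin-treated libraries labelled KO, and 0 to 4 in controls. Ttr was called higher in colonoids labelled KO under vehicle, with a log2 difference of 2.28 (adjusted p = 2.72e-07), and Alb by 1.15, although Alb passed the filter only through the vehicle-treated libraries labelled KO, so that this is a description. Under hemin the genotype difference was 0.63 for Ttr and 0.47 for Alb, and neither was called. In colonoids labelled KO the log2 difference of hemin against vehicle was -0.73 for Ttr and -0.74 for Alb, opposite in sign to those of Apoa1 and Apob. Apoa4 (0.306 FPKM with vehicle, 0 with hemin) and Apoc3 (0.454 and 0.1145 FPKM) were lower with hemin there, as Ttr and Alb were. The part of hepatocyte transcripts in the apolipoprotein differences was not tested.

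Mttp, the chaperone that lipidates apolipoprotein B, passed the filter through 3 libraries only, 2 of them vehicle-treated and labelled KO. The other was replicate 3 of the hemin-treated controls. High values in these 2 groups make the interaction negative, so the interaction and the genotype difference under vehicle are a description. Mttp FPKM were 0.664, 0.424 and 0.633 in vehicle-treated controls, 0.763, 0.654 and 1.10 in hemin-treated controls, 0.946, 1.20 and 1.17 in vehicle-treated colonoids labelled KO, and 0.739, 0.733 and 0.853 in hemin-treated colonoids labelled KO. With vehicle, the libraries labelled KO lay above the controls without overlap, at a log2 difference of 0.42 ± 0.111, which is under the threshold on size. With hemin the genotypes overlapped (-0.05 ± 0.111, adjusted p = 0.788). The interaction was -0.47 ± 0.157 (adjusted p = 0.0539) and was called in limma-voom at -1.07. Mttp had its highest mean in vehicle-treated colonoids labelled KO, the group in which alone Apoa4 was detected. For Mttp, replicate 3 of the hemin-treated controls (1.10) lay within the range of that group. Apob was at its highest in hemin-treated colonoids labelled KO.

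Fabp2, which encodes the intestinal fatty acid binding protein of absorptive cells, had the widest range of group means on the log2(FPKM + 1) scale among the 6 tested members (5.0, followed by 2.47 for Apoa1). Its FPKM were 55.5, 46.2 and 44.9 in vehicle-treated controls, from 595 to 884 fragments. In hemin-treated controls they were 33.3, 25.1 and 35.9. In vehicle-treated colonoids labelled KO they were 2.09, 2.76 and 3.14, from 33 to 51 fragments, and with hemin they were 0.360, 0.925 and 0.433, from 5, 21 and 6 fragments. The 4 groups therefore followed each other from control with vehicle to KO label with hemin without any overlap.

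Fabp2 was 18.4-fold lower in colonoids labelled KO than in controls under vehicle (2.66 ± 0.530 against 48.9 ± 5.82 FPKM, SD, n = 3), at a log2 difference of -3.77 ± 0.171 (adjusted p = 2.89e-08). Under hemin it was 54.9-fold lower (0.573 ± 0.307 against 31.4 ± 5.68 FPKM), at -4.37 ± 0.171 (adjusted p = 8.46e-09), and the pooled fragments gave 49.5-fold with a counting interval of 34.9 to 72.8. Hemin lowered Fabp2 in colonoids labelled KO by 4.65 times, at a log2 difference of -1.23 ± 0.171 (adjusted p = 9.53e-05). In controls the mean with hemin was 1.55 times lower, at -0.63 ± 0.171 (adjusted p = 0.0101), which is under the threshold on size. The interaction was -0.60 (95% interval -1.13 to -0.06, adjusted p = 0.101) on the log2(FPKM + 1) scale. It was called at -1.47 with a pseudocount of 0.1 and at -1.19 in TPM, and was -1.51 in limma-voom (adjusted p = 0.0556), so the direction was the same on each scale and the call depended on it.

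The other fatty acid proteins were at the limit of detection. Fabp1, the liver-type fatty acid binding protein that is abundant in the small intestine, had 1, 3 and 0 fragments in vehicle-treated controls and 0 in the other 9 libraries. Cd36, a membrane protein that takes up long-chain fatty acids, had 0, 1 and 4 fragments in vehicle-treated controls and 0 elsewhere. No difference could be read at this depth for either gene.

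Alpi, the brush border alkaline phosphatase and a marker of absorptive cells, was called lower in each comparison in which Fabp2 was called, at -1.19 between genotypes under vehicle, -1.51 under hemin and -2.06 for hemin in colonoids labelled KO. It was also called lower with hemin in controls (-1.73), where Fabp2 was not called. Guca2a, another marker of absorptive cells, was called lower in the same comparisons as Fabp2 (-2.55, -4.63 and -1.95). It was not called with hemin in controls (0.13). Aqp8 (3.25) and Slc26a3 (1.32), from the same marker list, were called higher in colonoids labelled KO under vehicle, and Aqp8 also under hemin (5.73). Krt20, a keratin of mature surface cells and another such marker, rose with hemin in colonoids labelled KO instead (1.41), from 99.1 to 110.7 FPKM in vehicle-treated to 245.9 to 322.0 FPKM in hemin-treated libraries. Over the list of 6 absorptive enterocyte markers the summed level ran from 649.5 to 682.0 FPKM in vehicle-treated libraries labelled KO and from 696.0 to 803.2 FPKM in vehicle-treated controls, with 2 of 5 tested markers called higher and 2 called lower. Under hemin the sum was 707.4 to 1151 FPKM in libraries labelled KO and 858.5 to 928.6 FPKM in controls, with 1 tested marker called higher and 2 lower. Over the list of 7 small intestinal markers the vehicle-treated libraries labelled KO had 27.4 to 31.4 FPKM and the vehicle-treated controls 39.1 to 41.5 FPKM, with 1 of 3 tested markers called higher and 1 lower. Under hemin the order was the reverse, with 78.9 to 94.0 FPKM in libraries labelled KO and 15.2 to 18.8 FPKM in controls, although Fabp2 was lower there as well. Of the 3 tested markers, Rbp2 (3.50) and Slc10a2, the ileal bile acid transporter (2.41), were then called higher in colonoids labelled KO, and Alpi lower. The colonic markers, which were called in the upward direction in colonoids labelled KO, went opposite to Fabp2. Gata4, a transcription factor of the proximal small intestine, was at 0.373 to 0.854 FPKM in control libraries and at 0 to 0.0889 FPKM in libraries labelled KO. The part of cell makeup and region in the Fabp2 difference was not tested.

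The genes whose log2(FPKM + 1) was most like that of Fabp2 over the 12 libraries included Kbtbd11 and Fam126a (Pearson r = 0.992 each), followed by Chst11 and 1810065E05Rik (r = 0.99 each). These libraries fall into 4 groups with separate Fabp2 levels, so that the coefficients are a description of the group pattern. Kbtbd11 averaged 11 and 6.63 FPKM in vehicle- and hemin-treated controls, and 0.698 and 0.0888 FPKM in vehicle- and hemin-treated colonoids labelled KO.

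Dgat1 and Dgat2 encode unrelated enzymes that carry out the same last step of triglyceride synthesis, the addition of a fatty acid to diacylglycerol, and both were well expressed. Dgat2 FPKM were 26.0, 29.1 and 32.7 in vehicle-treated controls and 19.5, 21.3 and 16.3 in hemin-treated controls. In colonoids labelled KO they were 13.8, 14.2 and 13.7 with vehicle and 24.8, 19.4 and 23.6 with hemin. Libraries with hemin were thus below those with vehicle in controls and above them in colonoids labelled KO, without overlap in either genotype.

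With vehicle, Dgat2 was 2.11-fold lower in colonoids labelled KO (13.9 ± 0.246 against 29.3 ± 3.39 FPKM, SD, n = 3), at a log2 difference of -1.02 ± 0.116 (adjusted p = 4.62e-05). This lies just past the threshold on size, and the difference was -0.94 without replicate 3 of the vehicle-treated controls and -0.91 in TPM. With hemin the genotypes overlapped, and the difference was 0.24 ± 0.116 (adjusted p = 0.145). The hemin difference was -0.60 ± 0.116 in controls (adjusted p = 0.00144) and 0.66 ± 0.116 in colonoids labelled KO (adjusted p = 5.38e-04), each under the threshold on size. In TPM the latter was 0.35 (adjusted p = 0.204). Their difference, the interaction, was 1.25 ± 0.164 (95% interval 0.89 to 1.62, adjusted p = 2.92e-04), and it was 1.15 in TPM (adjusted p = 0.0328).

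Dgat1 moved little. Its FPKM were 12.3, 14.4 and 14.8 in vehicle-treated controls, 16.9, 14.2 and 12.7 in hemin-treated controls, 10.8, 9.73 and 9.74 in vehicle-treated colonoids labelled KO, and 12.8, 11.6 and 12.4 in hemin-treated colonoids labelled KO. With vehicle the libraries labelled KO lay below the controls, at a log2 difference of -0.42 ± 0.10 (adjusted p = 0.0075), under the threshold on size. The interaction was 0.19 (95% interval -0.12 to 0.51, adjusted p = 0.377).

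**Figure D3:**
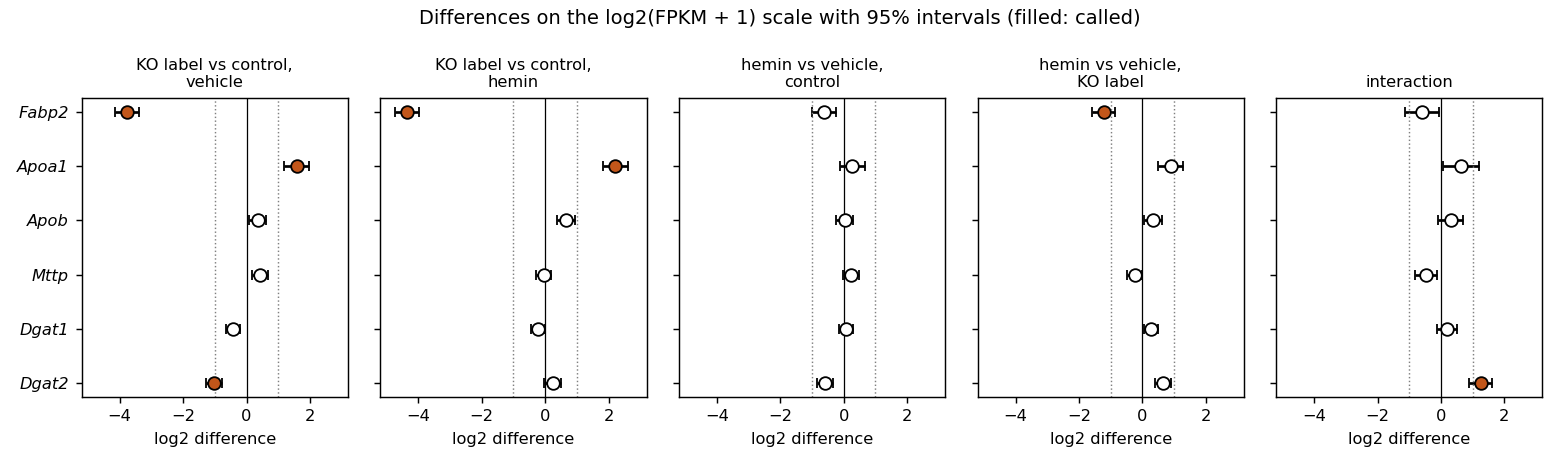
Differences on the log2(FPKM + 1) scale for the 6 tested members in the 5 comparisons, with 95% intervals from limma (12 libraries, 3 per group). Filled points were called, and dotted lines mark the threshold of 1 in either direction. Fabp2 and Apoa1 lie on opposite sides in both genotype comparisons, and Dgat2 is the member called for the interaction, at 1.25.

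Npc1l1, the transporter that takes up cholesterol from the gut lumen, did not reach the filter. It had 23, 26 and 24 fragments in vehicle-treated controls (0.312, 0.341 and 0.391 FPKM), 9, 8 and 3 in hemin-treated controls, 4, 3 and 4 in vehicle-treated colonoids labelled KO, and 0, 4 and 7 in hemin-treated colonoids labelled KO. The vehicle-treated controls stood above the other 9 libraries. Their mean was 7.11 times that of the vehicle-treated colonoids labelled KO (pooled fragments 7.08, counting interval 3.73 to 14.8) and 2.71 times that of the hemin-treated controls (pooled fragments 2.69, counting interval 1.62 to 4.66). limma-voom over genes with at least 10 fragments, added after seeing the data, gave log2 differences of -2.68 ± 0.592 (adjusted p = 0.00267) and -1.48 ± 0.534 (adjusted p = 0.0423). Under hemin the genotypes overlapped.

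**Figure D4:**
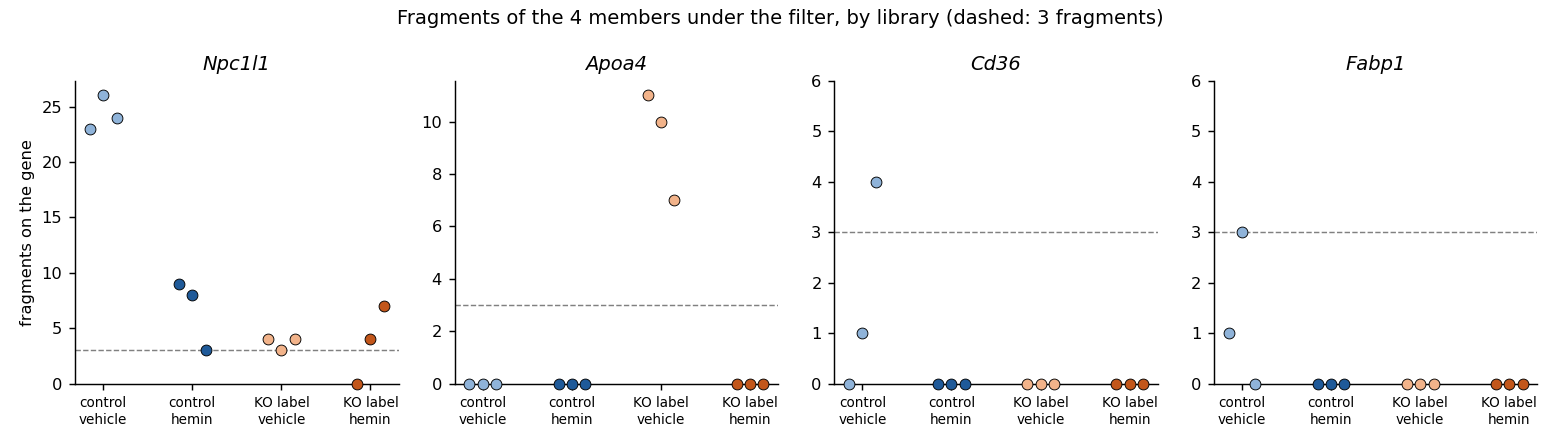
Fragments on the 4 members under the filter in each of the 12 libraries (linear axes from 0, 3 points per group, dashed line at the floor of 3 fragments). Npc1l1 has 23 to 26 fragments in vehicle-treated controls, Apoa4 has 7 to 11 in vehicle-treated colonoids labelled KO, and Cd36 and Fabp1 do not exceed 4.

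Ordered by FPKM, a per-length scale on which genes can be compared, the members led by Fabp2 in controls were led by Dgat2 in colonoids labelled KO. In vehicle-treated controls Fabp2 (48.9), Dgat2 (29.3) and Dgat1 (13.8) came first, and Apob (0.822), Mttp (0.574) and Npc1l1 (0.348) followed. Hemin-treated controls had the same first 5, Fabp2 (31.4), Dgat2 (19.1), Dgat1 (14.6), Apob (0.876) and Mttp (0.840). There the ranges of Dgat2 and Dgat1 overlapped, as did those of Apob and Mttp. In vehicle-treated colonoids labelled KO the order was Dgat2 (13.9), Dgat1 (10.1), Fabp2 (2.66), Apoa1 (2.16), Apob (1.33) and Mttp (1.11), and the ranges of Fabp2 and Apoa1 overlapped, as did those of Apob and Mttp. In hemin-treated colonoids labelled KO it was Dgat2 (22.6), Dgat1 (12.3), Apoa1 (4.87), Apob (1.91), Mttp (0.775) and Fabp2 (0.573). The ranges of Mttp and Fabp2 overlapped in the latter group, whereas Apob, Mttp and Npc1l1 did not overlap in the vehicle-treated controls.

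The remaining genes of the pathway were read from 6 lists with 66 genes, of which 52 passed the filter, Fabp5 and Ppara through 1 group alone and Creb3l3 through vehicle-treated libraries alone. Between the genotypes, 3 were called higher and 7 lower under vehicle (19.2% of the 52, beside 6.8% of all tested genes), and 4 higher and 4 lower under hemin (15.4% beside 6.01%). With hemin, 1 rose and 2 fell in controls (5.77% beside 8.11%), and 7 rose and 1 fell in colonoids labelled KO (15.4% beside 12.9%). For the interaction, 3 were called, each of them higher (5.77% beside 5.13%). The median log2 difference of the 52 genes was -0.10 for the genotypes under vehicle and 0.16 for hemin in colonoids labelled KO, beside 0.019 and -0.0019 for all tested genes. For the interaction the median was 0.34 beside 0.016, with 39 of the 52 genes above 0 and 13 below, and 24 passed the adjusted p-value alone, as did 3031 of all 12740 tested genes.

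In the list of fatty acid uptake, activation and binding, 9 of 11 genes were tested. Rbp2, the cellular retinol binding protein of enterocytes and a relative of Fabp2, averaged 2.40 and 5.01 FPKM in vehicle- and hemin-treated controls, and 11.4 and 66.7 FPKM in colonoids labelled KO. It was called higher in colonoids labelled KO under vehicle (log2 difference 1.86, adjusted p = 7.13e-07) and under hemin (3.50, adjusted p = 4.56e-09), the reverse of Fabp2. Scarb1, a lipoprotein and lipid receptor, was called higher in colonoids labelled KO under hemin (1.55). Slc27a4, a fatty acid transport protein, rose with hemin in colonoids labelled KO (1.27; 0.99 in TPM). Acsl3, an acyl-CoA synthetase, was called lower in colonoids labelled KO under vehicle (-1.16), and Fabp5, another fatty acid binding protein, was called lower with hemin in controls (-1.02), though it was tested only because of its level in vehicle-treated controls.

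In the list of the monoacylglycerol and glycerol phosphate routes and lipid droplets, 12 of 13 genes were tested. Mogat2, the acyltransferase that makes the diacylglycerol used by the Dgat enzymes, is also a neighbour of Dgat2, 36.4 kb away on the same strand (chr7:99219084-99238619). It averaged 3.67 and 3.03 FPKM in vehicle- and hemin-treated controls, and 0.553 and 4.26 FPKM in vehicle- and hemin-treated colonoids labelled KO. It was called lower in the latter genotype under vehicle (-1.59, adjusted p = 1.92e-06) and rose with hemin there (1.75, adjusted p = 4.84e-07). Lpin2, a phosphatidate phosphatase that also supplies diacylglycerol, behaved likewise (-1.12 between genotypes under vehicle, 1.25 with hemin in colonoids labelled KO). Gpat3, a glycerol phosphate acyltransferase, was called lower in colonoids labelled KO under vehicle (-1.99) and hemin (-1.60).

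Of the list of chylomicron assembly and secretion, 10 of 11 genes were tested. Between the genotypes under hemin, Tm6sf2, a membrane protein needed for loading lipid onto apolipoprotein B, was called higher in colonoids labelled KO (1.78, adjusted p = 5.06e-06). With hemin, Apobec1, the enzyme that edits Apob mRNA, rose in colonoids labelled KO (1.22, adjusted p = 1.91e-06), as did Mia2, a cargo receptor for large lipoproteins (1.02; 0.71 in TPM). The list of further apolipoproteins had 2 tested genes of 7, Apoa2 and Apoe, and neither passed the threshold on size in any comparison.

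In the list of sterol traffic, 5 of 9 genes were tested. Soat1, which esterifies cholesterol, averaged 0.574 and 4.69 FPKM in vehicle- and hemin-treated controls, and 6.07 and 15.4 FPKM in colonoids labelled KO. It was called higher with hemin in both genotypes (1.85 and 1.21; the latter 0.97 in TPM) and in colonoids labelled KO with both treatments (2.17 and 1.54). Flot2, a membrane raft protein, was called higher in colonoids labelled KO under vehicle (1.03; 0.93 without replicate 1 of the vehicle-treated controls and 0.98 without replicate 2 of the vehicle-treated colonoids labelled KO).

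Among the transcription factors known to act on these genes, 14 of 15 were tested, and those called were called lower. Cdx2, which specifies intestinal epithelium, averaged 202.1 FPKM in vehicle-treated controls and 48.7 FPKM in vehicle-treated colonoids labelled KO, and it was called lower in the latter genotype under vehicle (-2.03, adjusted p = 6.11e-06) and hemin (-1.27, adjusted p = 2.54e-04). Nr1h4, the bile acid receptor, was also called lower under both (-1.63 and -1.44), and so was Pparg under vehicle (-1.29). Ppara was called lower under hemin (-1.09), but it passed the filter only through the hemin-treated controls. Creb3l3, a membrane-bound factor that acts on apolipoprotein genes, differed with hemin by -1.94 in controls and by -1.10 in colonoids labelled KO, which is a description, since it passed the filter only through vehicle-treated libraries. Hnf4a, the main activator of apolipoprotein genes in the gut and liver, differed by -0.36 between genotypes under vehicle (adjusted p = 0.0173) and by 0.42 under hemin (adjusted p = 0.00786), under the threshold on size.

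**Figure D5:**
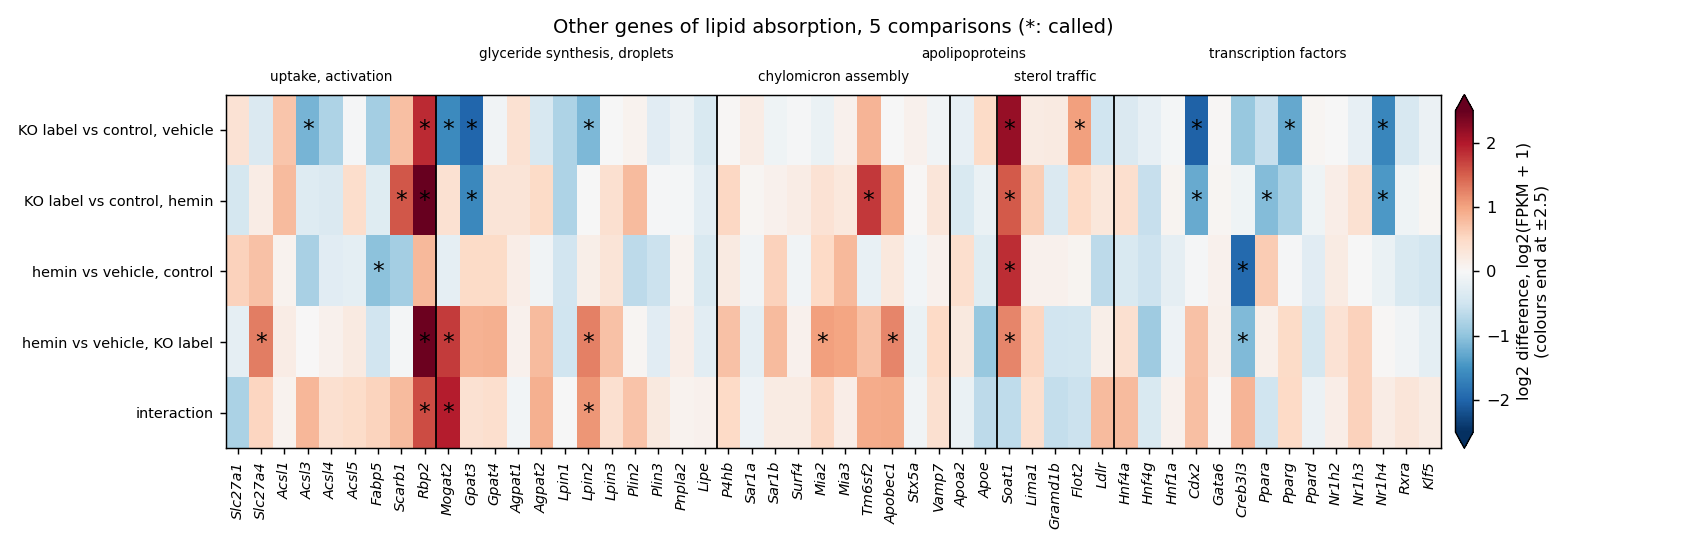
Log2 differences on the log2(FPKM + 1) scale (colour, ending at ±2.5) for the 52 tested pathway genes (columns, in 6 lists) in the 5 comparisons (rows). Stars mark called genes. Rbp2 and Soat1 are red across both genotype rows, and Gpat3, Cdx2 and Nr1h4 are blue there.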

How the data were processed

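Poly-A mRNA of 12 libraries, 3 in each of 4 groups taken from the sample labels, was analysed. The authors deposited FPKM per gene for 54532 genes, with gene coordinates and lengths. The submitters' processing notes name fastp, HISAT2 2.0.5, featureCounts 1.5.0-p3 and mm10, and the annotation version is not given in the sources used here. The deposited FPKM carry a scaling between libraries. Every FPKM was a whole multiple of the value of 1 fragment (tolerance 0.01), so fragments were recovered. They gave the depths, the floor of 3 fragments per library and limma-voom.

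Differences were computed with limma 3.58.1 in R 4.3.3 on log2(FPKM + 1), with an intensity trend, 1 mean per group and no block, for genes with at least 1 FPKM in at least 3 libraries. p-values were adjusted by the Benjamini-Hochberg method over all 12740 genes. Counting intervals are exact, at 95%. The functions were tested on simulated data. Figures were drawn with matplotlib 3.10.9 in Python 3.11.15. Coordinates are those of the deposited table, and those of all 10 members were identical in GENCODE M21, which gave the exon counts of the first transcript of each gene. Promoter sequences are from RefSeq.

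The members, pathway lists, markers and motifs were chosen with earlier results of these data known. All members, Hmox1, pathway genes called in a comparison and the 5 genes most like Fabp2 are named by rule, of which 1 is not reported here. Hnf4a, Apoc3, Apoa5, Apoa2, Apoe and the marker genes named with values were added after their values were seen. Alternatives were a pseudocount of 0.1, no filter, TPM, the replicate block, limma-voom, the adjusted p-value alone and each library left out. limma-voom over genes with at least 10 fragments and TPM without Gm23935 were added after seeing the data. Raw reads were not used here.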

Additional observations from a re-analysis of the deposited data

Results flagged for a closer look

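The hemin response differed between the genotypes by the test of the interaction for 1 member and 3 other pathway genes. The 3 are 5.77% of the 52 tested pathway genes, beside 5.13% of all tested genes, a share near the background, and 24 of the 52 passed the adjusted p-value alone, beside 3031 of 12740. Dgat2 had an interaction of 1.254 on the log2(FPKM + 1) scale (limma, Benjamini-Hochberg adjusted p = 2.92e-04), with lower values under hemin in all 3 control libraries and higher values in all 3 libraries labelled KO than in any vehicle-treated library of the same genotype. Mogat2 had an interaction of 1.967 (adjusted p = 2.17e-05), Rbp2 of 1.638 (adjusted p = 8.51e-05) and Lpin2 of 1.105 (adjusted p = 3.36e-06). Rbp2 was also higher with hemin in controls, by 0.81 on the log2 scale (adjusted p = 3.14e-04), and Lpin2 by 0.15 (adjusted p = 0.0365), whereas Mogat2 differed there by -0.22 (adjusted p = 0.166). Hemin-treated libraries labelled KO had more Hmox1 than hemin-treated controls, and the part of that in these differences was not tested.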

How the results depend on the processing

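Of the members' calls, none changed direction in any alternative. The number of members called for hemin in controls was 0 in the reported fit, 1 in limma-voom over genes with at least 10 fragments (Npc1l1) and 2 by adjusted p alone. For hemin in colonoids labelled KO it was 1, and became 2 in limma-voom, 3 in limma-voom over genes with at least 10 fragments and 5 by adjusted p alone. Leaving out each library in turn gave 1 to 2, the 2 being without replicate 2 of the hemin-treated libraries labelled KO, when Apoa1 passed at 1.03. Between the genotypes under vehicle it was 3, and became 5 in limma-voom over genes with at least 10 fragments and 5 by adjusted p alone. It fell to 2, without Dgat2, in TPM, in TPM without Gm23935 and without replicate 3 of the vehicle-treated controls. Under hemin it was 2, and became 3, with Apob, at a pseudocount of 0.1, in both limma-voom fits and by adjusted p alone. For the interaction it was 1, and became 2 with a pseudocount of 0.1, 2 in TPM, 2 in TPM without Gm23935, 2 in limma-voom and 3 in limma-voom over genes with at least 10 fragments. The added genes are Fabp2 in the first 3 of these and Mttp and Apoa4 in limma-voom. Apoa4, and Mttp under the filter of 1 FPKM, were tested through groups where they were high, so these calls are a description. The wider filter tests Npc1l1 and Apoa4, and the cause of the other changes was not tested.

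TPM moved the median log2 difference of all genes by more than 0.1 in 4 comparisons, to -0.192 for hemin in controls, -0.311 for hemin in colonoids labelled KO, 0.16 between genotypes under vehicle and -0.114 for the interaction. Relative to these shifts the hemin values of Dgat2 in TPM, -0.80 in controls and 0.35 in colonoids labelled KO, keep their order. Calls over all genes for hemin in controls went from 277 higher and 756 lower to 264 and 1441 in TPM. For hemin in colonoids labelled KO they went from 620 and 1028 to 403 and 2334, between genotypes under vehicle from 450 and 416 to 710 and 471, and for the interaction from 328 and 326 to 275 and 533. Gm23935, a short RNA gene, held 1.18% to 29.0% of the FPKM sum, which TPM divides by. limma-voom called 1830 genes for hemin in controls against 1033, 2605 against 1648 for hemin in colonoids labelled KO, 1304 against 866 between genotypes under vehicle and 1399 against 766 under hemin. A pseudocount of 0.1 called 1760 genes for hemin in controls and 1342 between genotypes under hemin. limma-voom over 20117 genes called 2774, 4187, 2450 and 2207 in the same order, and 1369 against 654 for the interaction. The adjusted p-value alone called 6359, 7694, 4362, 4383 and 3031. TPM without Gm23935 called 1606 and 2475 genes for hemin in controls and in colonoids labelled KO. With the replicate block, the numbers of members called were 0, 1, 3, 2 and 1 in the 5 comparisons, the same as without it. The deviations of same-numbered libraries had a mean correlation of -0.0425 over 18 pairs (-0.327 to 0.179). Over 36 other pairs it was 0.0232 (-0.395 to 0.344), so pairing by number was neither seen nor excluded. Depth limits Apoa4, Fabp1, Cd36, Npc1l1 and Apoa1 in controls, where a library held few or 0 fragments.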
